A study of Mus musculus with 3 samples.

Results

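Sense-intronic RNA genes are annotated noncoding genes that lie within an intron of another gene and are read from the same strand as that host gene. Of 333 such genes in the GENCODE M21 mouse annotation, 112 were detected here, out of 55536 gene identifiers in the deposited tables. A gene belonged to the class if it had at least 1 transcript of type sense_intronic and none of type protein_coding, lincRNA or antisense. The 112 members were chosen by their own level, since each had at least 1 TPM (a share of all transcripts, corrected for length) in each of the 3 libraries. Their levels are therefore given as a description, with no test. The members make up 33.6% of the class, against 18.3% of all identifiers (10143 genes) that passed the same limit.

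The libraries held rRNA-depleted total RNA of the chromatin fraction of primary macrophages grown from the bone marrow of C57BL/6J mice. All cells had received 100 ng/ml Lipid A, the part of bacterial lipopolysaccharide that activates TLR4, for 60 min. The labels give 1 group of 3 biological replicates with 1 µg, 250 ng and 500 ng of starting RNA for replicates 1, 2 and 3, all under 1 donor entry, so the spread between them may be technical. No unstimulated sample was analysed here, and no change upon stimulation can be read from the values. Expected counts on genes were 13318395, 15352661 and 15812581, of which members took 0.154% ± 0.013 (SD, n = 3). All 10 macrophage markers checked passed the limit of 1 TPM, at means of 1.82 to 195 TPM, while 1 of 28 markers of other cell types did (Kdr, 1.95 TPM ± 0.23) and 12 had no count.

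RNA polymerase II copies introns together with exons, and the splicing machinery removes them while the transcript is still on chromatin or soon after. The chromatin fraction is rich in such unfinished transcripts. A sense-intronic gene can mark a separate noncoding RNA with its own start, a stable piece of an intron, or a stretch of host transcript that was sequenced before splicing. Reads of these sources over the same bases cannot be told apart in the deposited tables. The best known member is Peg13, an imprinted noncoding RNA inside the trafficking gene Trappc9 that is expressed from the paternal allele in mouse brain.

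Most polyadenylated transcripts carry the hexamer AATAAA, or less often ATTAAA, shortly before their 3′ end, so the annotated ends of the highest members are shown. The lines below give, 5′ to 3′, the last 60 bases of the longest sense-intronic transcript of the 5 highest members and of Gm48194, from the GENCODE M21 transcripts (mm10), with each AATAAA or ATTAAA within the last 40 bases in capitals.
Gm17024: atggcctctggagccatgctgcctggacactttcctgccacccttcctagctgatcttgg
Gm48302: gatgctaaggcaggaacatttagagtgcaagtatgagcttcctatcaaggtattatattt
B230216N24Rik: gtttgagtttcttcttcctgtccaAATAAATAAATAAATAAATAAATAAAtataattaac
Gm3513: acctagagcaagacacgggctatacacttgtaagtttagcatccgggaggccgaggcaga
Gm47920: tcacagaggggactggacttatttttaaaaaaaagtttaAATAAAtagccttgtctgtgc
Gm48194: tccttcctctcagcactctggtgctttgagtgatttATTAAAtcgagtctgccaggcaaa
Gm17024 (chr12:40209487-40211073, minus strand), Gm48302 (chr13:75727279-75729162, plus) and Gm3513 (chr3:79551314-79552193, minus) held neither hexamer. Gm47920 (chr14:25459980-25462387, plus) held 1 AATAAA and Gm48194 (chr13:59781062-59781578, minus) 1 ATTAAA, while in B230216N24Rik (chr1:98031116-98057680, minus) the hexamer recurred within a tandem repeat. On the transcript strand, 25 of 112 members (22.3%) held a hexamer in this window, against 64 of the 221 class genes that did not pass (29.0%). A stretch of the last 20 bases that was at least 50% A closed 27 members (24.1%) and 50 other class genes (22.6%). A gene counts once whichever hexamer it holds, the opposite strand was not searched, and a match is a description of the letters, not a used site.

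By annotation, the members were longer and less often spliced than the class genes that did not pass. The median exonic length was 1701 bases in members (range 256 to 6071) and 795 in the other class genes (124 to 8030). Single-exon genes made up 64 of 112 members (57.1%) and 84 of 221 other class genes (38.0%). Every member lay wholly inside a protein-coding gene on its own strand, and 108 of 112 lay within 1 intron of a coding transcript of that host, against 209 and 202 of 221 other class genes. The 4 exceptions were Gm20705 in Gm20696, Gm28229 in Gm20537, Gm15708 in Bri3 and Gm47357 in Hdac9. Intron 1 of a coding transcript held 42 of these 108 members (38.9%) and 86 of 202 other class genes (42.6%). The median member began 35.4% of the way along its host, and the median other class gene 41.9%. The introns were long in both, with medians of 19435 bases in members and 33435 bases in the rest. Median GC content was 41.9% in members and 45.1% in the rest. These differences were not tested, and the split follows the gene table. In the second deposited quantification, described below, 84 of the other class genes passed the same limit. The quantifications differed more for spliced than for single-exon members, and most for members under 1000 bases. The comparison of features was not redone on the second quantification.

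Members were spread over 18 chromosomes but not evenly. Chromosome 3 held 32 of them, 48.5% of its 66 class genes. Chromosome 5 held 15 of 42 class genes (35.7%) and chromosome 1 held 13 of 32 (40.6%). The members had 86 hosts, of which 12 held at least 2 members each, 38 in all, and 74 held 1 each. The gene type of 3 members (B230216N24Rik, Gm43813 and Gm15503) was processed transcript and of 109 sense-intronic. B230216N24Rik is among the highest members, and its gene TPM covers 5 transcripts and 5853 exonic bases. The bases shown above for it end a sense-intronic transcript of 1140 bases.

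Levels spanned a wide range, with few high members. Gm17024 lay in intron 8 of Ifrd1, a transcriptional co-regulator induced by stress and growth signals. It had 186, 253 and 186 TPM in replicates 1, 2 and 3, a mean of 209 ± 39 (SD, n = 3), from 1455 expected counts on average. Gm48302 lay in intron 2 of Ell2, which encodes an elongation factor of RNA polymerase II, and had 80.6, 100.1 and 83.3 TPM. B230216N24Rik lay in intron 1 of Pam, the enzyme that amidates peptide ends, and had 59.8, 78.2 and 63.9 TPM. Its exons overlap an exon of Pam on the same strand, so its counts and those of Pam are uncertain. Same-strand exon overlaps were also found for Gm45311 in Sergef and for Gm29170, which overlaps the small RNA gene Gm25663, so their counts carry the same caveat. The posterior SD deposited with the count was 0 for B230216N24Rik and Gm29170 and at most 6.30% of the count for Gm45311. A total of 8 members overlap an exon on the opposite strand, among them Gm47920 in Zmiz1 and Gm44200 in Brk1. Gm3513 lay in intron 1 of Fnip2, a partner of the tumour suppressor folliculin, at 48.7, 59.1 and 53.8 TPM. In these 4 genes replicate 2 gave the highest value, and by the gene table the ranges of the 4 did not overlap. Their order changed in the second deposited quantification, described below. There Gm3513 had 105, 144 and 126 TPM, above Gm48302 (87.7, 93.5 and 73.6 TPM) and B230216N24Rik (79.3, 91.9 and 73.8 TPM). The ranges of Gm48302 and B230216N24Rik overlapped there.

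The next 6 members followed at 15.4 to 34.4 TPM. Gm47920 in Zmiz1, a co-regulator of transcription factors, averaged 34.4 TPM ± 5.2, and Gm47664 in Elmo1, which helps activate Rac during engulfment, 27.8 ± 2.8. Gm43387 in the kinase gene Hipk1 averaged 17.6 TPM ± 3.6, as did AC113485.1 in the sphingomyelin synthase gene Sgms1 at 17.6 ± 4.1. Gm19967 in Rabep1, an effector of endosomal Rab5, averaged 16.1 TPM ± 1.2 and Gm42659 in Capza1, a subunit of the actin capping protein, 15.4 ± 1.6 (SD, n = 3 each). By the gene table these last 4 did not differ beyond their spread. In the second quantification AC113485.1 stood apart at 42.3 TPM ± 10.6. Gm43387 averaged 17.6 ± 2.4 there, Gm19967 17.3 ± 1.6 and Gm42659 15.8 ± 0.7 (SD, n = 3 each).

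Most members were far lower. Counting all 112, 4 had a mean of at least 50 TPM, 13 had 10 to 50, 24 had 5 to 10, 50 had 2 to 5 and 21 had under 2. The median member had 3.43 TPM, against 7.31 for the 10143 detected genes of all types. The 3 highest members held 29.5% ± 2.1 of all member counts (SD, n = 3). The lowest means included those of Gm43696 in Lrig2 (1.09, 1.25 and 1.29 TPM) and Gm42701 in Magi3 (1.24, 1.09 and 1.16 TPM).

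**Figure D1:**
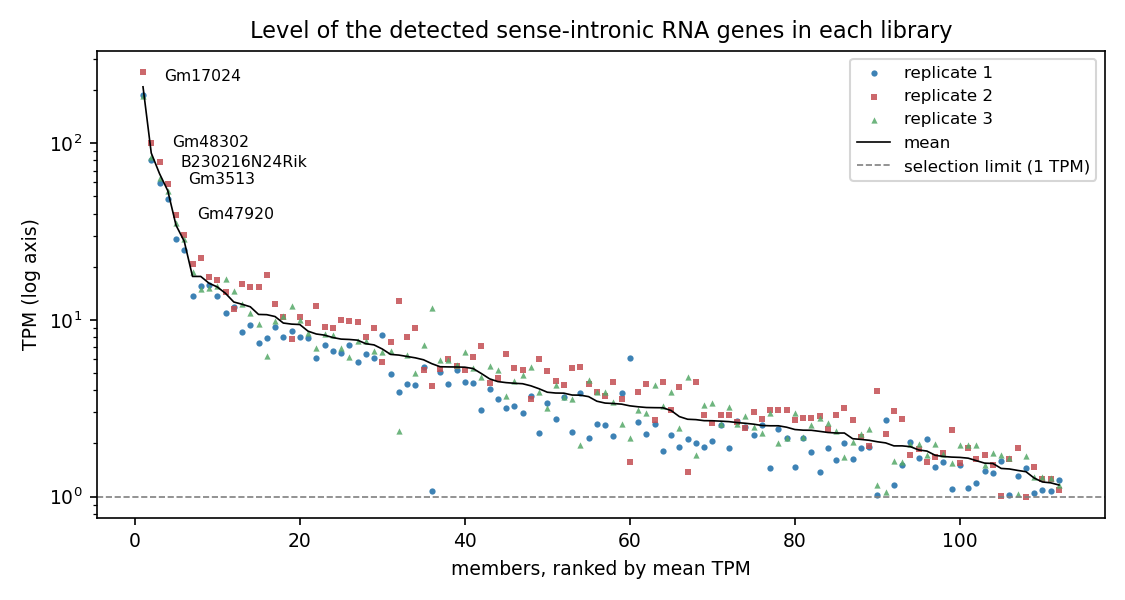
TPM of each of the 112 members (log axis) in replicates 1 (circles), 2 (squares) and 3 (triangles), ranked by their mean (line), with the selection limit of 1 TPM dashed. Only 4 members have means of at least 50 TPM, and replicate 2 is the highest point for most members.

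At the selection limit, the members just inside were Gm12737 in Tut4 (1.46, 1.00 and 1.69 TPM), C030032O16Rik in Magi3 (1.60, 1.01 and 1.72 TPM) and Gm43463 in Man1a2 (1.02, 1.63 and 1.65 TPM). Just outside were Gm43065 in Ptpn22 (0.98, 5.24 and 1.93 TPM), Gm43259 in Magi3 (0.96, 1.18 and 1.27 TPM) and Gm37864 in Dcaf6 (1.67, 0.94 and 2.31 TPM). Of the 221 class genes that did not pass, 17 reached 1 TPM in 2 libraries, 18 in 1 library, and 105 had no count at all. Counts behind the members had a median of 86 per library, and 10 members had under 10. These 10 were at most 534 bases long and had 4.33 to 9.67 counts on average for 1.54 to 6.32 TPM. TPM divides a count by an effective length, which is short for RNAs near the labelled size range of 250 to 400. Gm49733 in Senp5, for example, had 1.08, 4.20 and 11.7 TPM from 2, 5 and 15 counts. For these 10 the level is set by very few reads.

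Members whose symbol is not a plain Gm number numbered 17. Peg13 had 2.76, 4.54 and 4.27 TPM, all below the 13.0, 15.9 and 18.2 TPM of Trappc9 around it. Ppnr, in intron 4 of the Wnt pathway transcription factor gene Tcf7l2, had 4.95, 7.48 and 6.71 TPM. Hm629797 in Phkb, a subunit gene of phosphorylase kinase, had 2.23, 3.01 and 2.47 TPM. 4930405O22Rik in Fbxl17 averaged 7.75 TPM ± 1.92 and C230066G23Rik in Lrrc8c, part of a volume-regulated anion channel, 6.84 ± 1.23. Leaving aside B230216N24Rik, AC113485.1 and AC154492.2, which were higher, the rest averaged 1.44 to 4.35 TPM, with AC166575.1 in Pknox1 the highest of them and C030032O16Rik in Magi3 the lowest.

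Detection of a sense-intronic gene went with the level of its host. The host was not used to choose members. Hosts had a median mean TPM of 14.6 for members and 0.553 for the 209 other class genes with a host. The host itself passed 1 TPM in all 3 libraries for 110 of 112 members (98.2%) and for 80 of 209 others (38.3%). Among class genes in hosts under 0.1 TPM, 1 of 74 was a member, and in hosts of 0.1 to 1 TPM 1 of 49 was. The share of members was 39 of 85 (45.9%) in hosts of 1 to 10 TPM, 53 of 86 (61.6%) in hosts of 10 to 50 TPM and 18 of 27 (66.7%) in hosts of at least 50 TPM. Across all 321 class genes with a host, the Spearman correlation of gene and host mean TPM was 0.69, and across the 112 members alone 0.41. The points share libraries and some share hosts, so no p is given.

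Most members stood below their host. The level difference was taken in each library as log2(member TPM + 0.5) minus log2(host TPM + 0.5), on exonic TPM of both genes. Its median over members was -1.59 ± 0.13 (SD over 3 libraries). A total of 97 members were below their host in all 3 libraries, 8 were above it in all 3, and 7 changed sides. Single-exon members had a median difference of -1.73 (n = 64) and spliced members -1.47 (n = 48).

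The lowest differences at a host of at least 1 TPM were found in Gramd1b and Cdk14. Gm48127 had 2.42, 3.11 and 2.02 TPM, and Gm48129 3.87, 5.42 and 1.96 TPM, against 80.3, 87.8 and 103 TPM of Gramd1b, a carrier of cholesterol from the plasma membrane. They rest on 15.0 and 10.3 counts per library on average. Their differences were -4.92 ± 0.39 and -4.50 ± 0.79 (SD, n = 3). Gm43112 had 1.16, 3.05 and 1.60 TPM in Cdk14, a cyclin-dependent kinase gene at 36.4, 62.9 and 46.8 TPM, a difference of -4.37 ± 0.19.

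The 8 members above their host included 3 in 1 gene, Rap1a, a small GTPase that controls integrin adhesion. Gm43330 had 7.96, 10.3 and 9.97 TPM and Gm43328 7.88, 9.64 and 8.38 TPM, against 6.32, 7.27 and 5.79 TPM of Rap1a. Gm43329 had 7.17, 9.14 and 8.29 TPM. The other member in Rap1a, Gm43331, was above the host in 2 of the 3 libraries, at 6.05, 8.95 and 6.66 TPM. The values of Gm43330 and Gm43328 lay above all 3 host values, while those of the other members overlapped them. AC154492.2 in Rhoq, another small GTPase gene, had 6.67, 9.00 and 8.18 TPM against 2.47, 3.25 and 3.08 TPM of its host, a difference of 1.30 ± 0.04 (SD, n = 3). Its range did not overlap that of Rhoq.

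Both results turn on the quantification. In the second deposited quantification, described below, Rap1a averaged 32.5 TPM and the differences were -1.78 for Gm43330, -1.72 for Gm43328, -1.43 for Gm43329 and -0.07 ± 0.32 for AC154492.2.

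Smaller excesses were seen in 2 more. Gm44200 in Brk1, a subunit of the WAVE actin-nucleating complex, had 5.23, 5.45 and 5.56 TPM against 4.77, 3.84 and 4.73 TPM, with no overlap. Gm43024 in Wars2, the mitochondrial tryptophan tRNA ligase gene, had 2.65, 3.91 and 3.11 TPM against 2.61, 3.66 and 2.67 TPM, ranges that overlapped. In the second quantification Gm44200 was again above its host, by 2.49 ± 0.09, while Gm43024 was below, at -1.04 ± 0.24 (SD, n = 3). Gm44200 overlaps an exon of Gm44199 on the opposite strand, and the strand setting is not stated, so its excess is uncertain. The last pair had barely detected hosts. Gm48194 had 10.9, 14.4 and 17.1 TPM in Gm49354, a coding gene listed at 0 in every library, but it also lies inside the longer gene Tut7, which averaged 101 TPM. Gm28229 had 6.42, 8.03 and 7.55 TPM in Gm20537, at 1.67, 0.00 and 1.24 TPM. The second quantification put 7 members above their host in all 3 libraries, of which Gm44200, Gm48194 and Gm28229 were above it in both.

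**Figure D2:**
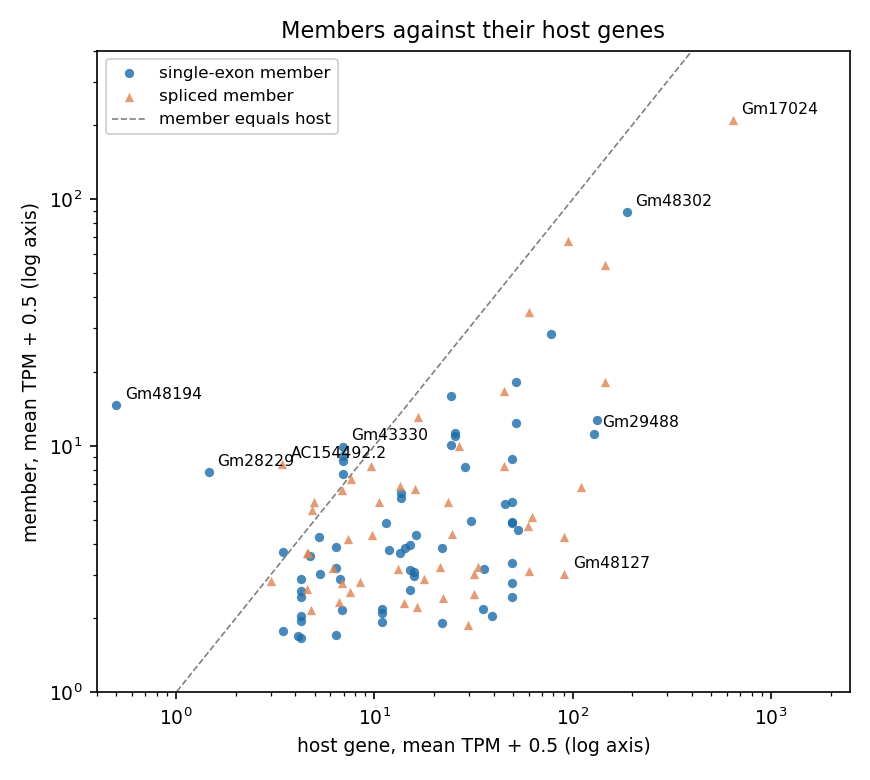
Mean TPM + 0.5 of each member against that of its host gene (both log axes), for single-exon members (circles) and spliced members (triangles), with the line of equality dashed. Nearly all members lie below the line, and Gm48194, Gm28229 and AC154492.2 lie farthest above it.

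Several members shared a host, which allows levels to be compared along 1 gene. Cdk14 held 7 members, Magi3 held 6, Rap1a 4, and Lrig2, Man1a2 and Snx27 held 3 each. Members of 1 host are not independent, as they lie on the same transcription unit. In Cdk14 the member means were 1.94 to 8.32 TPM, a highest-to-lowest range of 1.89 ± 0.08 on the log2 scale (SD, n = 3). In Rap1a the means were 7.22 to 9.42 TPM and the range was 0.37 ± 0.18. The widest range was in Zmiz1, where Gm47920 had 28.7, 39.0 and 35.3 TPM near the start of intron 1, and Gm47921, 328 bases long, had 2.48, 2.46 and 2.86 TPM farther into that intron, from 5 counts on average. The second quantification turned this order, with means of 35.1 TPM for Gm47920 and 94.0 TPM for Gm47921. The order of the members was identical in all 3 libraries in 6 of 12 such hosts.

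Magi3, a scaffold gene of cell junctions, is annotated with 11 class genes, 8 of them in its intron 1 of 113797 bases. From the host start inwards, the mean TPM of these 8 was 2.37 for Gm43256, 2.08 for Gm43260, 1.14 for Gm43259, 1.44 for C030032O16Rik, 1.55 for Gm43258, 1.16 for Gm42701, 0.687 for Gm42702 and 0.243 for Gm42699. The 2 nearest the start had the highest means and the 2 farthest the lowest, with no steady order among the 4 between them. The Spearman correlation of TPM with distance was -0.83, -0.88 and -0.93 in replicates 1, 2 and 3, over 8 genes that share 1 intron. In the second quantification it was -0.57, -0.29 and -0.55. Beyond intron 1, 9530097N15Rik in intron 6 averaged 1.94 TPM ± 0.70.

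In Cdk14, by the gene table, the member nearer the host start was the higher one within each of the 3 introns that held more than 1. Gm43728 had 4.34, 6.00 and 5.92 TPM in intron 2, and Gm43727 downstream of it 3.25, 5.37 and 4.52 TPM. In intron 5, Gm10484 had 3.18, 6.38 and 3.69 TPM and Gm43577 1.61, 2.91 and 2.35 TPM, an order that the second quantification turned at means of 6.67 and 7.41 TPM. In intron 14, Gm43111 had 6.09, 11.9 and 6.97 TPM, Gm43113 1.90, 4.18 and 2.43 TPM and Gm43112 1.16, 3.05 and 1.60 TPM. Lrig2 had 2.53, 3.72 and 3.90 TPM at 4930509H03Rik, 605 bases from its start, and 1.91, 2.88 and 3.28 TPM at A530041M06Rik farther into intron 1.

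Counted over all hosts, 14 pairs of members were neighbours in the same intron, in 10 introns of 8 hosts. The upstream member was higher in all 3 libraries in 9 pairs, the downstream one in 1 pair (Gm43330 over Gm43331 in Rap1a), and 4 pairs were mixed. In the second quantification these counts were 8, 3 and 3, and 5 pairs had the upstream member higher in all 3 libraries under both. Of the other 4 pairs with the upstream member higher in the gene table, those in Zmiz1, Snx27, intron 5 of Cdk14 and Rap1a, the means of all 4 turned, as did the 1 pair led by its downstream member. The gene-table count was looked for after the Magi3 and Cdk14 values had been seen, is not tested, and pairs of 1 intron share members.

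**Figure D3:**
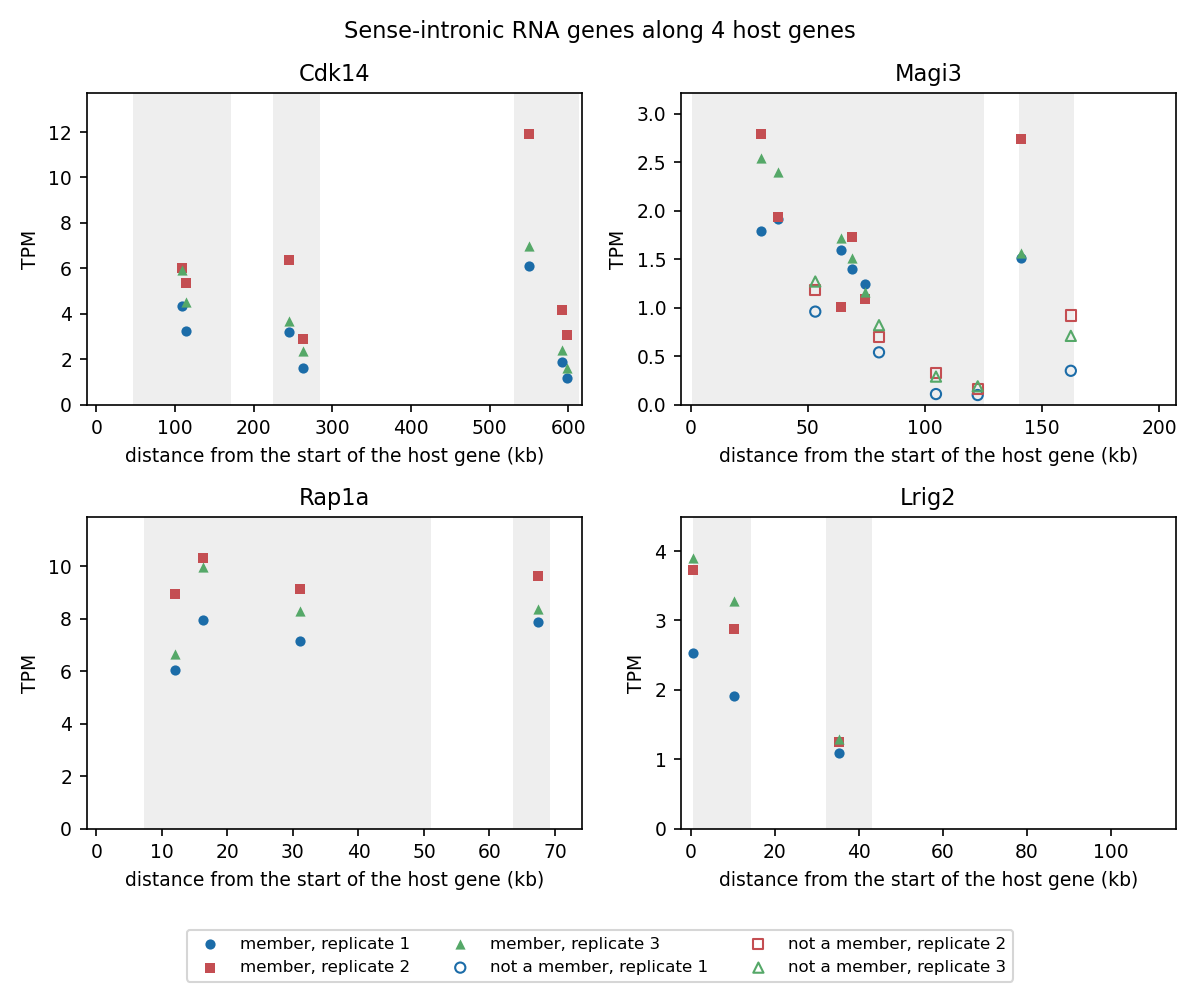
TPM of class genes against their distance in kb from the start of 4 host genes, in replicates 1 (circles), 2 (squares) and 3 (triangles), with members filled, other class genes open and the introns that hold them shaded. In intron 1 of Magi3 the 2 genes nearest the start have the highest means and the 2 farthest the lowest, in Cdk14 the member nearer the start is the higher in each shaded intron, and the 4 members in Rap1a have means of 7.22 to 9.42 TPM.

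Libraries differed in the level of members as they did for other genes. Replicate 2 gave the highest TPM for 68 of 112 members (60.7%), replicate 3 for 36 (32.1%) and replicate 1 for 8 (7.14%). Over all 10143 detected genes the shares were 62.2%, 31.7% and 6.16%. The hosts were highest in replicate 2 for 58 of 86, and 64 of 112 members peaked in the same library as their host. Matches are common where most genes peak in 1 library, and no baseline for this count was computed. For the level difference of member and host the highest library was replicate 2 in 43, replicate 3 in 35 and replicate 1 in 34 members. The median SD of log2(TPM + 1) over the libraries was 0.25 for members and 0.26 for all detected genes. Adding 1 narrows the spread of low genes and members were lower, so these SDs are not strictly comparable. In an edgeR fit of rounded expected counts, the median coefficient of variation was 0.177 for the 96 members with enough counts and 0.175 for the 12505 genes fitted. The fit draws each gene toward a trend shared by all genes, so the closeness of these medians is partly set by the fit.

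The most variable members with at least 50 counts included Gm29488, Gm47357, Gm15903 and Gm43112. Gm29488, in intron 4 of Srgap2, had 7.90, 18.0 and 6.22 TPM from 319, 659 and 230 counts. Its host did not follow, at 112, 136 and 135 TPM. Gm47357 had 3.10, 7.09 and 4.73 TPM with its host, the deacetylase gene Hdac9, at 3.35, 5.87 and 3.87 TPM. Gm15903 in Nipsnap2 had 1.81, 4.48 and 3.26 TPM against 3.02, 5.04 and 4.37 TPM. These 4 were highest in replicate 2.

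The deposit holds a second quantification of the same reads, in a transcript table with estimated counts. It put 111 of the 112 members over 1 TPM in all 3 libraries, the exception being Gm42701, and 84 further class genes as well. The number of genes of all types past the limit in this quantification is not given, so neither count can be read as a trait of the class. The second quantification gave higher values than the gene table in all 3 libraries for 80 members (71.4%) and lower ones for 1. It gave higher values for 80.8% of 10137 detected genes. The median difference in log2(TPM + 1), which understates fold differences at low levels, was 0.63 over members and 0.55 over those genes. Among members it was 0.97 for the 48 spliced and 0.20 for the 64 single-exon ones. It was 1.16 for the 37 members under 1000 bases, 0.25 for the 30 of 1000 to under 2000 bases and 0.28 for the 45 of 2000 bases or more, of which 25, 8 and 15 were spliced.

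In 17 members the second quantification was over 4 times the first, and 12 of these were under 1000 bases, 11 were spliced and 6 had under 10 counts. The same count over all detected genes is not given, so such gaps cannot be called particular to members. Gm13840 in Pxn, the gene of the adhesion scaffold paxillin, had 107, 161 and 136 TPM in the second quantification, against 3.89, 12.7 and 2.36 TPM in the gene table. Gm47921 in Zmiz1 had 78.8, 125 and 78.0 TPM against 2.48, 2.46 and 2.86 TPM. Gm16155 in Tmcc3 had 47.7, 59.4 and 41.9 TPM against 2.71, 2.27 and 1.06 TPM. These 3 are 256, 328 and 338 bases long, and the 2 quantifications differed by more than 10 times in the mean of each. Among the 4 highest members, Gm48302 averaged 84.9 TPM against 88.0 and B230216N24Rik 81.7 against 67.3, while Gm17024 averaged 568 TPM against 209 and Gm3513 125 against 53.9.

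**Figure D4:**
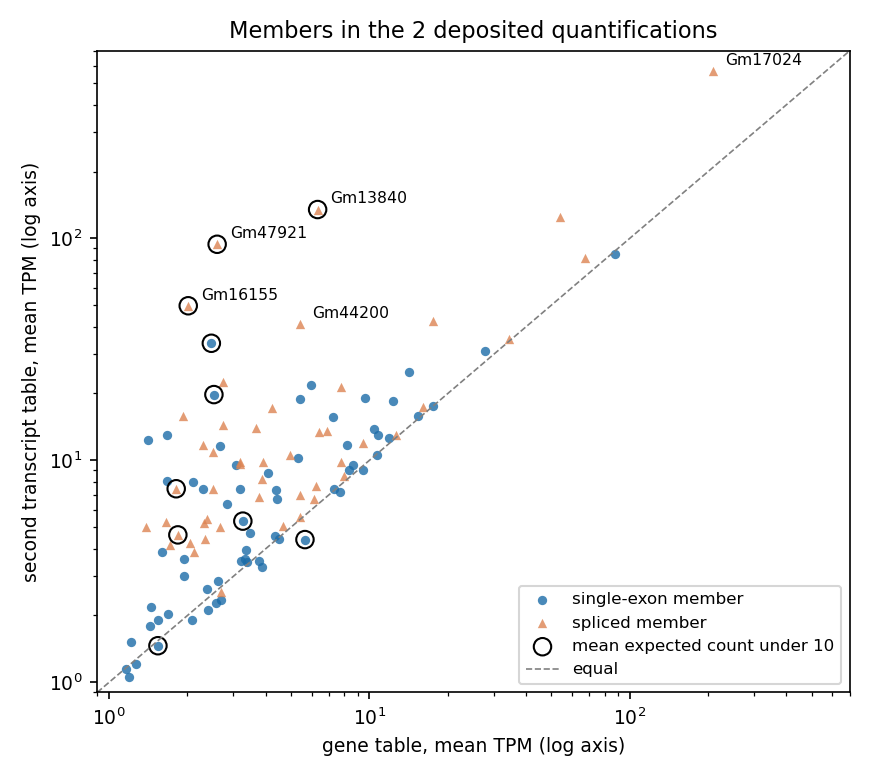
Mean TPM of each member in the second transcript table against that in the gene table (both log axes), for single-exon members (circles) and spliced members (triangles), with members of under 10 expected counts ringed. Most points lie above the line of equality, and Gm13840, Gm47921 and Gm16155 lie farthest from it.

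The hosts are also annotated with isoforms that keep an intron. The TPM of these isoforms is an estimate that depends on the quantification, and not a direct measure of unspliced host RNA. Summed TPM of retained-intron isoforms was compared with that of protein-coding isoforms in the same libraries, with limma on log2((retained-intron TPM + 0.5)/(coding TPM + 0.5)) and Benjamini-Hochberg adjustment over all 5597 genes with both kinds. Retained-intron isoforms were higher in 22 of the 67 hosts tested (32.8%), against 35.5% of all genes. Coding isoforms were higher in 26 (38.8%), against 31.9% of all genes, and the remaining 19 hosts missed the threshold. Over hosts the median log2 ratio was -0.02, and over all genes 0.08. With the second quantification the hosts' shares were 35.8% for retained-intron and 41.8% for coding isoforms, against 46.7% and 32.4% of the 6842 genes tested. The difference between hosts and other genes was not tested. All p-values for isoforms rest on 3 libraries under 1 donor entry. They measure repeatability between these libraries, not between donors or quantifications.

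Among the hosts of high members the balance went both ways. Pam had 35.7, 62.2 and 43.3 TPM of retained-intron isoforms against 6.32, 8.76 and 6.97 TPM of coding isoforms, a log2 ratio of 2.57 ± 0.14 (SE, adjusted p = 2.0e-06 by limma, n = 3). Cdk14 had 25.2, 46.0 and 32.6 TPM against 7.69, 10.6 and 12.2 TPM (1.70 ± 0.17, adjusted p = 3.9e-05 by limma). In neither gene did the values overlap. B230216N24Rik shares exon bases with Pam on the same strand, so the isoform levels of Pam are uncertain. Ell2 (0.98 ± 0.17, adjusted p = 0.00094 by limma) and Fnip2 (0.60 ± 0.13, adjusted p = 0.0034 by limma) also had more retained-intron TPM. In the second quantification Ell2 missed the threshold (0.11, adjusted p = 0.38 by limma), the ratio of Pam was 0.91 and those of Cdk14 and Fnip2 were 1.83 and 0.91. Ifrd1, the host of the highest member, had a ratio of 0.32 ± 0.16 that missed the threshold (adjusted p = 0.11 by limma).

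Rabep1 had the lowest ratio, with 5.32, 4.81 and 4.62 TPM of retained-intron isoforms against 43.4, 39.1 and 36.5 TPM of coding isoforms (-2.89 ± 0.14, adjusted p = 1.1e-06 by limma). Fancc, a gene of DNA crosslink repair that holds Gm16132, had -2.60 ± 0.16 and Srgap2 -2.19 ± 0.16. Elmo1 had -1.18 ± 0.14, so high members also lay in hosts whose coding isoforms led. Under both quantifications 42 hosts passed, 4 of these with opposite signs, and 6 passed by the gene-table quantification alone. In Lrrc8c and Tmem161b the second quantification had coding isoforms higher and the first retained-intron isoforms, and in Magi3 and Zfyve28 the reverse.

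**Figure D5:**
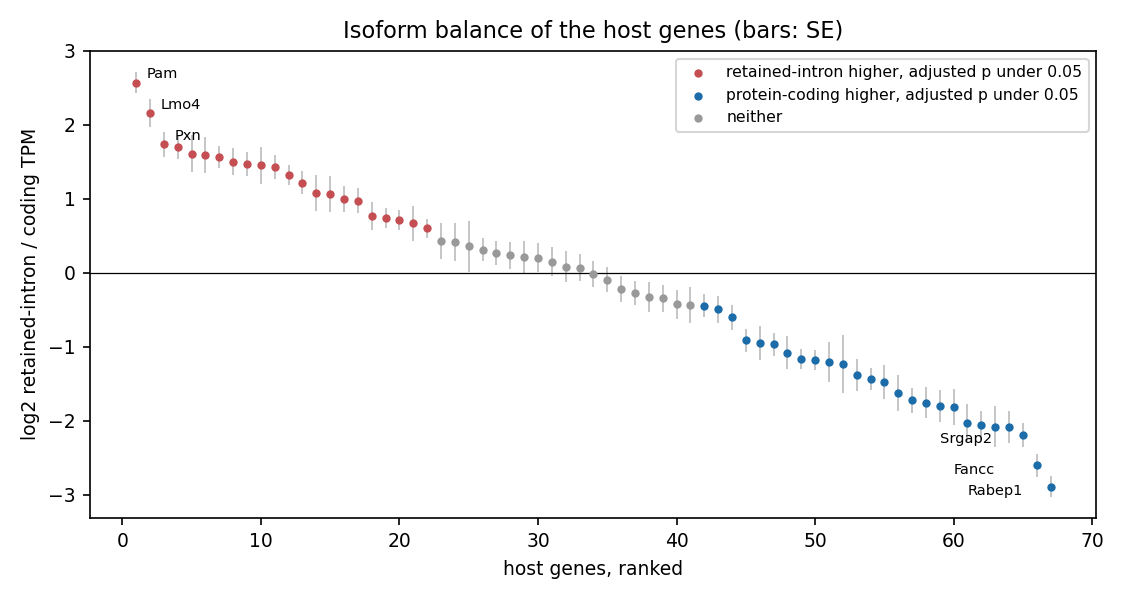
Log2 ratio of retained-intron to protein-coding isoform TPM for the 67 tested host genes in rank order, coloured by the limma call. Bars give the SE of the limma fit to 3 libraries, which draws on the variance of all genes. The 22 hosts with more retained-intron and the 26 with more coding isoforms stand at either end, from Pam at 2.57 to Rabep1 at -2.89.

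Listed genes of the stimulus response and of macrophage identity held almost no class genes. Of 171 genes on lists of immediate early, primary cytokine, NF-kB and feedback, interferon response, TLR4 signalling and macrophage identity genes, 1 held a class gene and none held a member. With 1 class gene in these hosts, the absence of members from them says little about the 112 members. The class gene was AC122252.1 in Dusp1, the phosphatase gene that ends MAP kinase signals. It had 0.40, 0.95 and 0.70 TPM from 4, 8 and 6 counts, while its host had 200, 340 and 319 TPM.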

How the data were processed

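Total RNA-seq was measured in 3 libraries of 1 group, so no comparison of conditions was made. Per the labels the build was mm10, and the annotation was M21 per the deposited text files. What aligned and quantified the reads, and with which strand setting, is not stated in the labels or file headers, which leaves overlapping genes uncertain. The authors deposited, per library, a gene and a transcript table with expected counts and TPM, and a second transcript table with estimated counts and TPM, under column names of kallisto, summed here per gene. The posterior SD of the count (a score in the deposited gene table) was 0 for 105 members. Rows naming no gene were left out (1.40% of replicate 1, 0.352% of replicate 2 and 0.354% of replicate 3). Estimated counts of the second table totalled 21055097, 27428699 and 27362420. Chi-square per degree of freedom between library pairs was 26.0, 11.0 and 26.2, so no library was a copy.

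The host is the shortest protein-coding gene on the same strand whose span holds the member. Intron numbers refer to the coding transcript with the shortest intron that holds the member. Sequences, positions and types came from GENCODE M21, and bases past the annotated ends were not used here, where the plan had meant to read them from a genome. Isoform ratios, with 0.5 added, were tested with limma 3.58.1 (intercept only, variance trend on the mean summed TPM, mean of at least 1 TPM), adjusted over all genes. The spread was measured with edgeR 4.0.16 (TMM, filterByExpr) on the expected counts, after rounding them. Both were checked on simulated data. Other values are descriptions. Versions were scipy 1.17.1, pandas 2.3.3, numpy 2.4.6, R 4.3.3 and python 3.11.15. Intervals of shares are not given, and low counts limit the precision of short members.

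The members and lists were chosen with earlier results of these data known. The text may name the 10 highest and 3 lowest members, the 5 most variable at 50 counts or more (SD of log2(TPM + 1)), the 3 highest and lowest differences to a host of at least 1 TPM, members in listed hosts, members whose symbol does not start with Gm, the 3 on each side of the limit, and their hosts. Others, such as neighbours in 1 host, members above their host and those far apart between quantifications, were named after their values were seen. Some members that the rule names are not reported here.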

Additional observations from a re-analysis of the deposited data

How the results depend on the processing

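Changes of threshold, quantification, pseudocount, filter, host and library were tried. The number of members was 112, and became 70 at a limit of 2 TPM, 195 with the second quantification, 135 at 0.5 TPM and 107 at 1 CPM (counts scaled to library size), which 91 of the members passed. Leaving out 1 library gave 113 to 124 genes. Matching counts over genes of all types are not given. The median log2(TPM + 1) of members was 2.16, and 1.82 with a pseudocount of 0.1, 2.74 on CPM, 3.19 with the second quantification, 0.35 over all class genes and 2.03 to 2.31 without 1 library. The median difference of member and host was -1.59, and -1.82 with the second quantification, -1.69 over 105 members wholly inside 1 intron with no same-strand exon over them (added after seeing the data), and -1.53 to -1.66 without 1 library. The median SD between libraries was 0.25, and 0.32 with a pseudocount of 0.1, 0.19 on CPM with TMM factors and 0.19 with the second quantification. The common coefficient of variation over all genes was 0.181, and 0.125 to 0.206 without 1 library, lowest without replicate 2. Hosts with higher retained-intron isoforms numbered 21 to 24 and hosts with higher coding isoforms 22 to 28 under the 6 alternatives to 22 and 26. Over all genes tested the second quantification had 3198 and 2217 such genes of 6842, against 1988 and 1784 of 5597. It put 7 members, against 8, above their host in all libraries, 3 of them shared, and the upstream member first in 8 neighbouring pairs, against 9, with 5 shared (both added after seeing the data). Replicate 2 was highest in 66 members with the second quantification and in 66.7% of members with at least 50 counts (both added after seeing the data). Of 39 single members compared, 22 moved by more than their SD with the second quantification. The causes of these shifts were not tested. No paired analysis was possible because there is only 1 group. Counts limit what can be said of the 10 members with under 10 reads on average.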

Other observations

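Some sense-intronic genes that did not pass were high in the second quantification while the gene table held almost no reads for them. Gm15535 in Gm37240 had 144, 138 and 118 TPM in replicates 1, 2 and 3 of the second quantification, against a mean of 0.033 TPM in the gene table. Gm47031 in Mgat4c had 89.3, 86.7 and 74.8 TPM against a mean of 0.233 TPM, and its host was listed at 0. CT571247.2 in Dennd1c had 25.0, 62.1 and 38.4 TPM and no expected count in any library. These 3 were chosen after their values were seen, and the reason for the gaps was not tested.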
